A study of Homo sapiens with 4 samples.

Results

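The mesoderm-stage library of a human blood differentiation series was compared, gene by gene, with the highest and the lowest of 3 other libraries, so that the genes particular to that stage could be described. A gene counted as highest in the mesoderm library at 5 or more there, with a value + 1 that was 2 times or more the highest of the others. A gene counted as lowest there when the value + 1 in each other library was at least 2 times that in the mesoderm library and each of those values was 5 or more. Of 17630 genes, 315 were highest in the mesoderm library (1.79%) and 24 were lowest (0.136%), which makes 339 members. They were 4.73% of the 6655 genes at 5 or more there and 0.595% of the 4035 genes at 5 or more in each other library. These counts and the values of the members follow from the rule and are a description with no test.

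H1, a line of human embryonic stem cells, gave all libraries, with no transgene or gene edit named in the labels. Undifferentiated H1 cells (hESC) were the starting point. The mesoderm library (MES) held APLNR+ cells sorted on day 2, after 2 days in activin A at 40 ng/ml and BMP4 at 50 ng/ml. The day 4 library (HEP) held CD31+CD34+ cells sorted after 2 further days in VEGF at 40 ng/ml and bFGF at 50 ng/ml. The day 7 library (HPC) held CD31+CD43+ cells sorted after 3 more days in VEGF and bFGF with SB-431542, an inhibitor of the activin and NODAL receptors. All media were based on Custom mTeSR1. Each stage was 1 library from 1 cell line, so no value has a replicate error and no difference has a replicate check. The depth is unknown, and in these bulk samples fewer cells of a type and less RNA per cell cannot be told apart.

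In the embryo, mesoderm arises when epithelial cells pass through the primitive streak, where NODAL, BMP, WNT and FGF signals meet. The streak cells switch on T-box and homeobox transcription factors, lose their epithelial contacts and migrate out as mesoderm or endoderm. Cells that receive much BMP take lateral fates, which include heart, blood vessels and blood. Many of the genes induced by these signals encode secreted inhibitors of the same signals, so ligands and antagonists are often made side by side. The apelin receptor APLNR is a surface protein of such early mesoderm and was the antigen of the day 2 sort.

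The label of the library was read against marker genes. CER1, MIXL1, MESP1 and GRP, the markers given for the stage, were chosen with earlier results of these data known. They are therefore no independent check of the label. All were highest in MES. APLNR itself was not, because it stood at 0.57 in hESC, 344 in MES, then 250 in HEP and 15.6 in HPC, only 0.46 above HEP on the log2 scale of (value + 1). Among further mesoderm markers EOMES and PDGFRA were highest in MES, also under all 5 other scalings of the values. HAND1 was highest in MES too, but kept its call under only 3 of the 5. The brachyury gene T had its maximum in MES at 3.71, under the minimum of 5. Markers chosen for other cell types were low in MES. CDH5, PLVAP and ICAM2 of endothelium stood at 0.14 to 0.36, and HBE1, SPN and PTPRC of blood at 0 to 0.47. PAX6 and SOX1 of neural ectoderm stood at 0.03 each, and the trophoblast genes CGA, GCM1 and ELF5 at 0 to 0.09. These neural and trophoblast genes were listed at 0 in hESC, HEP and HPC, so low values are not particular to MES. Of 7 detected trophoblast and amnion genes (1 or more in any library), 1 was highest in MES, HAND1, and 4 had their maximum there. Of 8 detected neural genes 1 was highest in MES, OTX2, and 2 had their maximum there. Over all 12075 detected genes 315 (2.61%) were highest in MES and 2886 had their maximum there. The endoderm factor FOXA2 stood at 0.23, whereas SOX17, which endoderm and arterial endothelium share, stood at 25.1 in MES and 26.9 in HEP. Pluripotency factors had not all gone, with SOX2 at 0.41 in MES but NANOG at 10.7 and POU5F1 at 568.

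CER1, whose secreted product blocks NODAL and BMP, stood farther above the other stages than any other gene. Its value was 1.92 in hESC, 2761 in MES, then 2.22 in HEP and 1.03 in HPC, a log2 difference of 9.74 to the highest other library. The neuropeptide gene GRP followed, with 0.06 in hESC, 117 in MES, then 0.58 in HEP and 0.08 in HPC (6.22). In both genes MES alone was high and the 3 other libraries lay close together. MFAP4, a microfibril-associated protein, had the same form with 0.37, 77.9, 0.75 and 0.04 in stage order (5.50).

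The other leading genes fell into a few roles. MIXL1, GSC, EOMES, MESP1 and MESP2 are transcription factors, BMP2 and WNT5A are ligands, and FST and DKK1 are secreted inhibitors of activin and of WNT. CYP26A1 encodes an enzyme that breaks down retinoic acid, and HAS2 the synthase of the matrix sugar hyaluronan. POSTN encodes the matrix protein periostin, NTS the peptide neurotensin and NPPB the B-type natriuretic peptide. CNKSR3, ATP12A, a proton and potassium pump, and ALPK2, an alpha-kinase, complete the 20. CNKSR3 stood at 1.33 in hESC, 69.9 in MES, then 1.35 in HEP and 1.15 in HPC. ALPK2 stood at 18.6 in MES and at 0.05 in hESC, and was listed at 0 in HEP and HPC. NTS had high values at the other stages too, at 44.2 in hESC, 1022 in MES, then 57.2 in HEP and 15.5 in HPC. Its log2 difference was 4.14 as deposited and 2.19 after the trend with GC content was removed, a correction described further on. All 20 passed the rule with that trend removed, and HEP was the next highest library for most of them.

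**Figure D1:**
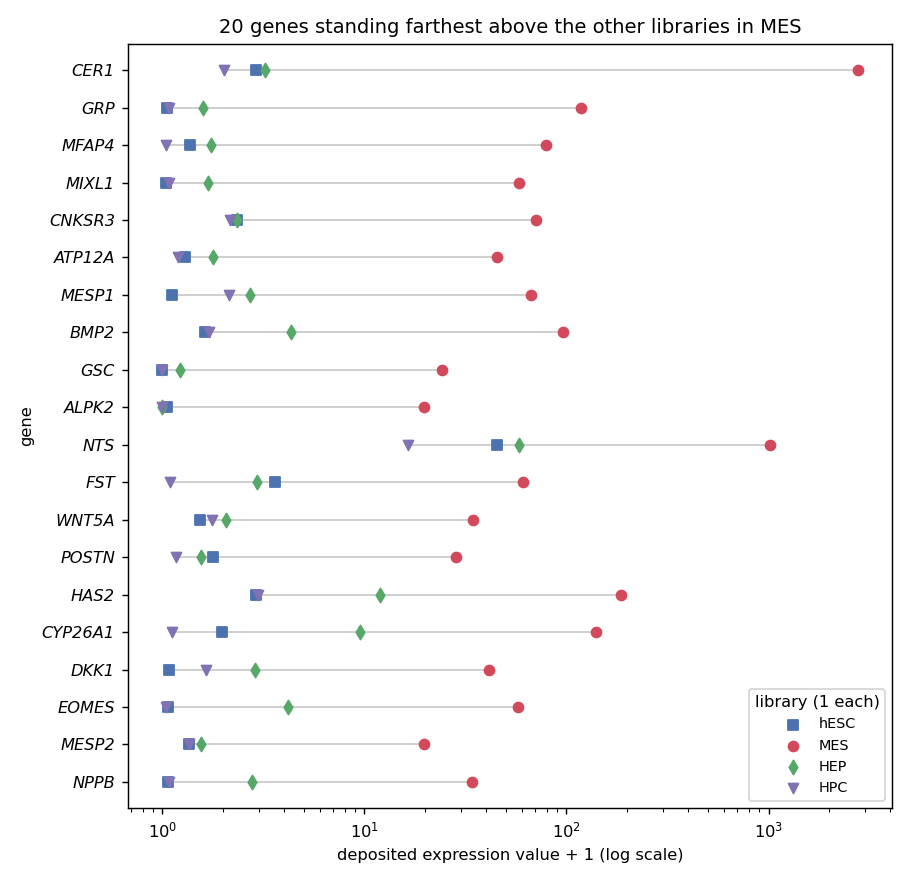
Deposited expression value + 1 (log axis) of the 20 genes standing farthest above the other libraries in MES, with 1 symbol for each of the 4 libraries and a grey line spanning them. MES stands alone at the right in each row, from CER1 at 2761 to ALPK2 at 18.6.

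The promoters of some leading genes are shown because motifs of the activin and NODAL response, and TATA boxes, occur in them. The sequences are RefSeq's windows on GRCh38.p14, from 250 bases before to 50 after the annotated start, 5′ to 3′ on the gene's strand. FOXH1 is the DNA-binding partner through which SMAD2 and SMAD3 reach many NODAL target genes. In the first 3 sequences the capitals mark a match to its motif AATNCACA on either strand, and in the last 2 they mark a TATA box, TATAAA.
CER1, chr9:14722684-14722983, minus strand: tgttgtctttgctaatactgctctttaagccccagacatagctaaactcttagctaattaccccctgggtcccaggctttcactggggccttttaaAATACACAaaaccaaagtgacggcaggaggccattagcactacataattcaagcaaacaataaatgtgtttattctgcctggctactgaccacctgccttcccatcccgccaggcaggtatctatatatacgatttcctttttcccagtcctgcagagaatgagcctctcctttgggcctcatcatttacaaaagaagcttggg
MIXL1, chr1:226223414-226223713, plus strand: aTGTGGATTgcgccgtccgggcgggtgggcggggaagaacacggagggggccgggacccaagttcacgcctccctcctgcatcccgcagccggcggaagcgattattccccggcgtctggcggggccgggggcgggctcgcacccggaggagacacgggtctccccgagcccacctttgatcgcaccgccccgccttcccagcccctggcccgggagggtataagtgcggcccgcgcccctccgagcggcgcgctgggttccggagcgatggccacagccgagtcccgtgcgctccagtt
MESP2, chr15:89776082-89776381, plus strand: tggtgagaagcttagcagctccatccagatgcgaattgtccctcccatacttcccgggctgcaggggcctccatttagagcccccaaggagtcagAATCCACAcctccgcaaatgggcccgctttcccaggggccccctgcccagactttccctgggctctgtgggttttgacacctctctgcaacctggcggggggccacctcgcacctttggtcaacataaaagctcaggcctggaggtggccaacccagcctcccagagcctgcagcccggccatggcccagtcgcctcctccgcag
GRP, chr18:59219908-59220207, plus strand: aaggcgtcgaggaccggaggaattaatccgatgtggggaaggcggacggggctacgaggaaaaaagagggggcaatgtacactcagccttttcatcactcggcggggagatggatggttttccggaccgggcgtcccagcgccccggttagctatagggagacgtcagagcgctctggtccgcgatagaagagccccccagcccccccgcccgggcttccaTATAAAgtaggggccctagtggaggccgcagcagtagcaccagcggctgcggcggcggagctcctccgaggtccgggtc
DKK1, chr10:52314031-52314330, plus strand: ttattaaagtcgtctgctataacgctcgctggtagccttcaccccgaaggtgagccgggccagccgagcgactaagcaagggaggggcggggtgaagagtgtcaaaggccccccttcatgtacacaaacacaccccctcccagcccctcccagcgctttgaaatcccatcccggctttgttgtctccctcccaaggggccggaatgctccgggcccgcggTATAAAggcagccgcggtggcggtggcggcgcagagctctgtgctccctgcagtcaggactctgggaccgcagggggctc

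A promoter window was matched for 233 of the 315 genes highest in MES. The FOXH1 motif was found in 3 of them (1.29%), against 1.25% of the 6784 matched promoters of genes at 5 or more in any library, so its share was at the background. The 3 were CER1, MIXL1 and MESP2, all among the 20 leading genes. The match began 154 bases before the start in CER1, 249 in MIXL1 and 155 in MESP2. A TATA box on either strand was found in 28 of the 233 (12.02%), against 5.45% of the background promoters, 6.61% in genes highest in hESC, 9.70% in those highest in HEP and 8.77% in those highest in HPC. GRP and DKK1 carried it 29 and 30 bases before the start. Between 15 and 40 bases before the start, on the gene's own strand, it was present in 6.44% of the promoters of genes highest in MES and in 1.95% of the background. The same share was 7.46% for genes highest in HEP, so it was not a feature of MES alone. The TCF/LEF motif CTTTGA was found in 9.44% against 7.71%, and the T-box motif GGTGTNA in 6.87% against 6.94%. The SMAD motif CAGAC was found in 43.8% against 43.0%, and GATAA in 15.9% against 13.3%. The CCAAT box was found in 34.3% against 38.4%, and the homeodomain pair TAAT and ATTA with 2 bases between them in 0 of 233 against 0.147%. A match is a description of letters and not of binding.

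The size of the difference varied widely among the 315 genes. Their median log2 difference to the highest other library was 1.56. At least 4-fold was reached by 91 genes, at least 8-fold by 30 and at least 16-fold by 13. In 187 genes every other library was under 5, in 25 every other library was under 1, and in 31 every other library was at 5 or more, so the last group differs in level and not in presence. HEP was the next highest library for 160 genes, hESC for 128 and HPC for 27. Just inside the rule were APOBEC3D, AKAP12 and UBE2J1 (log2 differences of 1.0035, 1.0012 and 1.0), and just outside it CENPI, GPC6 and SON (0.9988, 0.9985 and 0.9978). The scatter of MES against the highest other library shows the leading genes far above a dense band in which the 2-fold line has no gap.

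**Figure D2:**
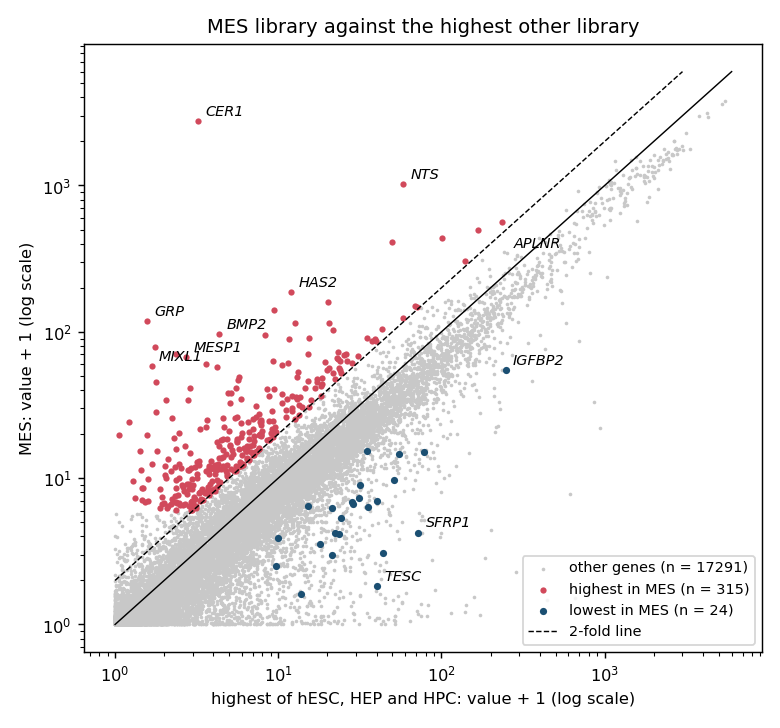
Value + 1 in MES (y, log axis) against value + 1 in the highest of hESC, HEP and HPC (x, log axis) for each of 17630 genes. The 315 genes highest in MES lie on or above the dashed 2-fold line, led by CER1, and the 24 lowest in MES lie below the solid line of equality.

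Transcription factors of the primitive streak were the list with the largest share of its detected members called, apart from the 4 label markers. Of 14 detected members (1 or more in any library), 9 were highest in MES and 0 lowest, against 2.61% and 0.199% of all 12075 detected genes. The label markers MIXL1 and MESP1 are among the 9. Detection through MES itself makes such a call more likely, here and for each list that follows. The list's median log2 difference to the highest other library was 1.64, beside -0.43 for all detected genes. MIXL1 stood at 0.04 in hESC, 57.2 in MES, then 0.68 in HEP and 0.08 in HPC, and GSC, the homeobox gene of the organizer, at 23.1 in MES, 0.22 in HEP and a listed 0 in hESC and HPC. EOMES, a T-box factor required for mesoderm and endoderm formation, stood at 0.07, 56.5, 3.20 and 0.04 in stage order.

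MESP1 and MESP2, basic helix-loop-helix factors of nascent mesoderm, are neighbours on chromosome 15 and were both highest in MES. MESP1 stood at 0.12 in hESC, 65.9 in MES, then 1.73 in HEP and 1.13 in HPC, and MESP2 at 0.35, 18.7, 0.56 and 0.36. LHX1 (8.95 in MES) and SNAI1 (8.06 in MES), a repressor of epithelial genes, passed the rule from low values elsewhere. OTX2, a head and forebrain homeobox gene, passed it from an hESC value that was already above 1, at 10.1 in hESC, 24.98 in MES, then 2.53 in HEP and 0.08 in HPC. T and TBX6 had their maximum in MES but stayed under the minimum of 5. EVX1, SP5 and FOXH1 were shared with a neighbouring stage, as SP5 stood at 10.7 in MES and 15.97 in HEP. All 5 other scalings gave 9 called members.

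Genes of lateral plate and cardiogenic mesoderm were split between those highest in MES and those that continued into HEP. Of 24 detected members 8 were highest in MES and 0 lowest, and the median difference was 0.34. PDGFRA, a growth factor receptor of early mesoderm, stood at 0.38 in hESC, 15.5 in MES, then 1.68 in HEP and 0.37 in HPC. GATA6 was listed at 0 in hESC and stood at 35.1 in MES, then 12.5 in HEP and 1.5 in HPC, while HAND1, a factor of heart and extraembryonic mesoderm, stood at 0.07, 47.1, 17.4 and 1.16. These last 2 genes were therefore still present on day 4, and each kept its call under 3 of the 5 other scalings. BMP4, FOXF1, IRX3 and MSX2 also passed the rule. GATA4, at 13.4 in MES and 6.95 in HEP, passed it only with the GC trend removed (log2 difference 0.85 as deposited and 1.24 then). NKX2-5, KDR, MEIS1 and MSX1 were higher in HEP than in MES, with NKX2-5 at 3.37 in MES and 19.3 in HEP. The number of members called ran from 4 to 9 over 5 other scalings.

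Of 5 detected genes of paraxial and intermediate mesoderm, 2 were highest in MES. They were LHX1 and DLL3, a divergent NOTCH ligand, at 2.28 in hESC, 24.7 in MES, then 3.56 in HEP and 0.85 in HPC. Of 13 detected definitive endoderm genes 2 were highest in MES, CER1 and GATA6, and 4 had their maximum there. The median difference was -0.94. With the GC trend removed 3 passed, and the count ran from 1 to 3 over the 5 other scalings. Whether the sorted cells included endoderm was not tested.

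In the NODAL pathway the genes highest in MES were antagonists and targets. Of 21 detected members 6 were highest in MES and 0 lowest, with a median difference of 0.57, and 6 to 8 were over the 5 other scalings. FST, which encodes the activin-binding protein follistatin, stood at 2.61 in hESC, 59.7 in MES, then 1.95 in HEP and 0.09 in HPC. LEFTY2 and LEFTY1, inhibitors of NODAL that are near-identical in sequence and may share reads, stood at 11.9 and 19.9 in MES and at 2.16 and 6.97 in hESC. NODAL itself stood at 3.69 in hESC, 7.36 in MES, then 0.33 in HEP and 0.04 in HPC, with its maximum in MES but a log2 difference of 0.83, just short of the rule. Its co-receptor TDGF1 was higher in hESC (225) than in MES (165). The receptor genes ACVR1B, ACVR2A and ACVR2B did not pass. PMEPA1, a target of the pathway, did.

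The BMP ligands BMP2 and BMP4 were both highest in MES, BMP2 as one of the 20 leading genes. BMP2 stood at 0.62 in hESC, 95.7 in MES, then 3.34 in HEP and 0.70 in HPC, and BMP4, which was also added to the medium as protein, at 0.93, 102, 20.5 and 1.74. In HEP, BMP4 lay farther above its hESC value than BMP2. The secreted inhibitor NOG (10.7 in MES, 2.78 in HEP) and the decoy receptor BAMBI (147 in MES, 70.2 in HEP) passed the rule, as did MSX2 and ID4. BAMBI kept its call under 1 of the 5 other scalings and MSX2 under 2. Of 23 detected members 7 were highest in MES and 0 lowest, with a median difference of 0.57. With the GC trend removed 5 were, without ID4 (log2 difference 0.96) and the receptor gene BMPR2 (-0.14), and the count ran from 4 to 7 over the 5 other scalings. ID1, ID3 and SMAD6, common targets of the pathway, were higher in HEP, with ID1 at 356 in MES and 523 in HEP.

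WNT pathway genes supplied 10 members highest in MES, from ligand to inhibitor, of 34 detected. The ligand WNT5A stood at 0.54 in hESC, 33.3 in MES, then 1.06 in HEP and 0.76 in HPC, and WNT3 at 0.59, 17.4, 5.63 and 1.25. Among receptors FZD8 stood at 24.1 in MES and at most 2.68 elsewhere, and LGR5, a receptor for R-spondins and a WNT target, at 14.3 in MES and at most 0.81 elsewhere. ROR2, a receptor for WNT5A that is on no list, stood at 20.6 in MES and 2.32 in HEP. The inhibitor DKK1 stood at 0.08 in hESC, 40.2 in MES, then 1.89 in HEP and 0.65 in HPC. SFRP1, an inhibitor that binds WNT ligands, was lowest in MES with 71.1 in hESC, 3.24 in MES, then 12.4 in HEP and 9.81 in HPC. DKK3, NKD1 and FZD2 passed too. FZD4 and LGR4 passed as deposited but not with the GC trend removed (0.47 and 0.97). The median difference was 0.22, and 7 to 10 members were called over the 5 other scalings. AXIN2 and LEF1, targets often read for WNT activity, stood at 3.33 and 3.46 in MES with similar values in hESC and HEP respectively.

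In the FGF pathway 4 of 23 detected members were highest in MES, of which 3 were ligands. FGF8, the ligand required for cells to leave the streak, stood at 0.40 in hESC, 11.5 in MES, then 0.68 in HEP and 0.06 in HPC, FGF17 at 0.07, 7.71, 1.61 and 0.05, and FGF10 at 14.5 in MES and 3.56 in HEP. The fourth, FLRT3, did not pass with the GC trend removed (0.04). Receptors and feedback genes were not particular to MES, as FGFR1 stood at 31.2 in hESC, 27.4 in MES and 28.4 in HEP and DUSP6 was highest in hESC (75.97, against 21.9 in MES). The list's median difference was -0.12.

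Of 13 detected retinoic acid genes only CYP26A1 was highest in MES, with 0.98 in hESC, 140 in MES, then 8.46 in HEP and 0.11 in HPC. The synthesis genes ALDH1A1 and ALDH1A3 stood at 0.11 and 2.26 in MES. None of 9 detected HOX and CDX genes passed the rule, and none had its maximum in MES.

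Matrix and secreted genes supplied 10 members of 45 detected, with a median difference of -0.34. HAS2 stood at 1.92 in hESC, 186 in MES, then 10.97 in HEP and 1.98 in HPC. COL5A2, a fibrillar collagen chain, stood at 13.8, 436, 100 and 8.92, and the protease inhibitor SERPINE2 at 13.5, 409, 48.9 and 12.9. In all 3 genes HEP kept a part of the MES value and HPC was near or below hESC. POSTN, TNC, FBN2, CTGF and CYR61 passed the rule as deposited. FBN2 kept its call under 0 of the 5 other scalings (0.56 with the GC trend removed), TNC under 1 and CYR61 under 2, and 7 to 10 members of the list were called over them. IGFBP2, which binds insulin-like growth factors, was lowest in MES. Fibronectin, FN1, was not particular to the stage, since it went from 12.2 in hESC to 158 in MES and 545 in HEP.

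Genes of cell guidance were called in 8 of 31 detected cases, among them receptors and ligands of 3 families. PLXNA2, a semaphorin receptor, stood at 0.15 in hESC, 45.7 in MES, then 4.68 in HEP and 0.93 in HPC. The semaphorins SEMA6D and SEMA3C stood at 14.4 and 7.57 in MES and at 0.46 or less elsewhere. The ephrin receptors EPHA4 (24.95 in MES, 4.46 in HEP), EPHB3 and EPHB2, the netrin NTN4 and the chemokine scavenger ACKR3 also passed. With the GC trend removed 7 passed, without SEMA3C. The median difference was -0.22.

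Of 29 detected genes of the epithelial to mesenchymal switch only SNAI2, SNAI1 and CDH2 were highest in MES. SNAI2, a repressor of the E-cadherin gene, stood at 0.15 in hESC, 10.2 in MES, then 1.21 in HEP and 0.77 in HPC. CDH2, N-cadherin, stood at 7.88, 47.8, 12.02 and 3.69. With the GC trend removed its log2 difference was 0.9998, just under the rule. The E-cadherin gene CDH1 (31.5 in hESC, 12.5 in MES, 2.76 in HEP) and VIM (34.2 in hESC, 345 in MES, 645 in HEP) ran through MES in opposite directions without a peak or dip there.

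Genes of muscle and of the immediate early response were also among the members. NPPB and MYL7, the atrial myosin light chain, are cardiomyocyte genes; MYL7 stood at 0.65 in hESC, 69.4 in MES, then 14.1 in HEP and 0.55 in HPC. TAGLN was the only other of 15 detected muscle genes to pass (2 to 5 over the 5 other scalings). The cardiac factor NKX2-5 was higher in HEP, as given above. Of 30 detected immediate early and stress genes 5 were highest in MES, GADD45B, IER3, JUN, KLF6 and IER5, and 2 to 4 were over the 5 other scalings. KLF6 and IER5 kept their call under 0 of these scalings, JUN under 2, and GADD45B and IER3 under all 5. GADD45B stood at 3.69 in hESC, 48.4 in MES, then 4.72 in HEP and 1.18 in HPC. A sort is stated for MES, HEP and HPC and not for hESC. The part of cell handling in them was not tested.

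Lists of later or earlier stages held few or no members, but at the 2.61% of all detected genes lists of their size would hold few as well. None of 31 endothelial genes, 21 haematopoietic regulators or 21 blood lineage genes detected was highest in MES, with medians of -3.28, -3.60 and -4.19. Of 24 pluripotency genes 1 passed, with 2 of 24 when the GC trend was removed. Of 33 cell cycle genes only MKI67 passed (4.37 in hESC, 10.3 in MES, then 2.08 in HEP and 1.43 in HPC). No glycolysis or housekeeping gene passed in either direction. In the plot of list members called, each list with a gene highest in MES lies to the right of the line for all detected genes. In a short list 1 call is enough for that, as for the cell cycle list (3.03%), so this position shows nothing by itself. Of 560 detected list genes 76 (13.6%) were highest in MES, and the lists were chosen with earlier results of these data known.

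**Figure D3:**
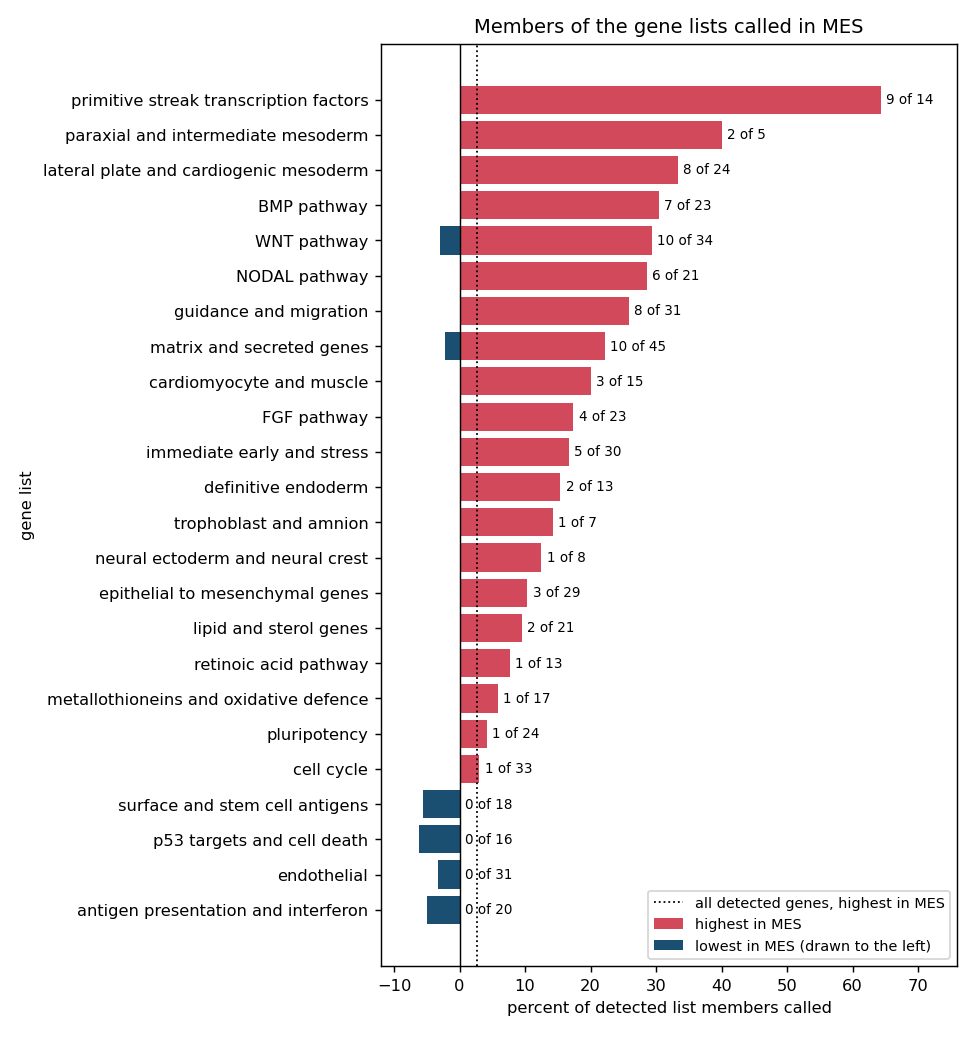
Percent of detected members called highest in MES (red bars, to the right, with counts) or lowest in MES (blue bars, to the left). Each gene list with at least 1 call is shown, except the list of 4 label markers. Those markers still count in any other list that holds them. The dotted line marks all detected genes (2.61% highest in MES), and the streak transcription factors have the longest bar with 9 of 14.

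The genes lowest in MES were few and their differences small. Only WSCD1 and TESC reached 4-fold, and the median log2 difference to the lowest other library was -1.21. WSCD1 stood at 12.7 in hESC, 0.61 in MES, then 11.2 in HEP and 7.34 in HPC. TESC, a calcium-binding protein, stood at 6.87 in hESC, 0.82 in MES, then 9.01 in HEP and 39.3 in HPC. EDIL3, an integrin-binding matrix protein, stood at 7.80, 1.49, 8.75 and 8.59, so that the 3 other stages were close together and MES alone was low.

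Several genes lowest in MES encode surface or secreted proteins. IGFBP2 had the highest values of the 24, with 195 in hESC, 53.4 in MES, then 182 in HEP and 246 in HPC. THY1, the surface antigen CD90 of stem cells and of mesenchyme, stood at 76.8, 14.1, 65.4 and 34.9. TEK, the angiopoietin receptor of endothelium, stood at 6.58, 2.09, 42.6 and 18.4, and so was lower in MES than in undifferentiated cells before its value in HEP. SLC29A1, a nucleoside transporter, stood at 39.3, 5.98, 17.7 and 21.1.

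Some other members of the low group act inside the cell. BCL2L1, which encodes the survival protein BCL-XL, stood at 18.8 in hESC, 8.67 in MES, then 49.9 in HEP and 36.6 in HPC. UBE2L6, the enzyme that conjugates ISG15, stood at 27.3, 8.0, 19.4 and 30.6, and IFITM2, an interferon-induced gene with close paralogs, at 13.0, 5.67, 22.1 and 27.5. ISG15 itself was lowest in MES (20.9) without passing the rule, since hESC stood at 33.1. Further members, not sorted here by where their products act, were TMEM106C, SNCG, RNASET2, XYLT2 and HDDC3, with MES values of 2.0 to 5.82. In 17 of the 24 genes HPC was above hESC. Just inside the rule were ETHE1, BCL2L1 and C16orf13 (-1.04, -1.03 and -1.03) and just outside it YDJC, C9orf16 and DPM3 (-0.97, -0.97 and -0.95).

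**Figure D4:**
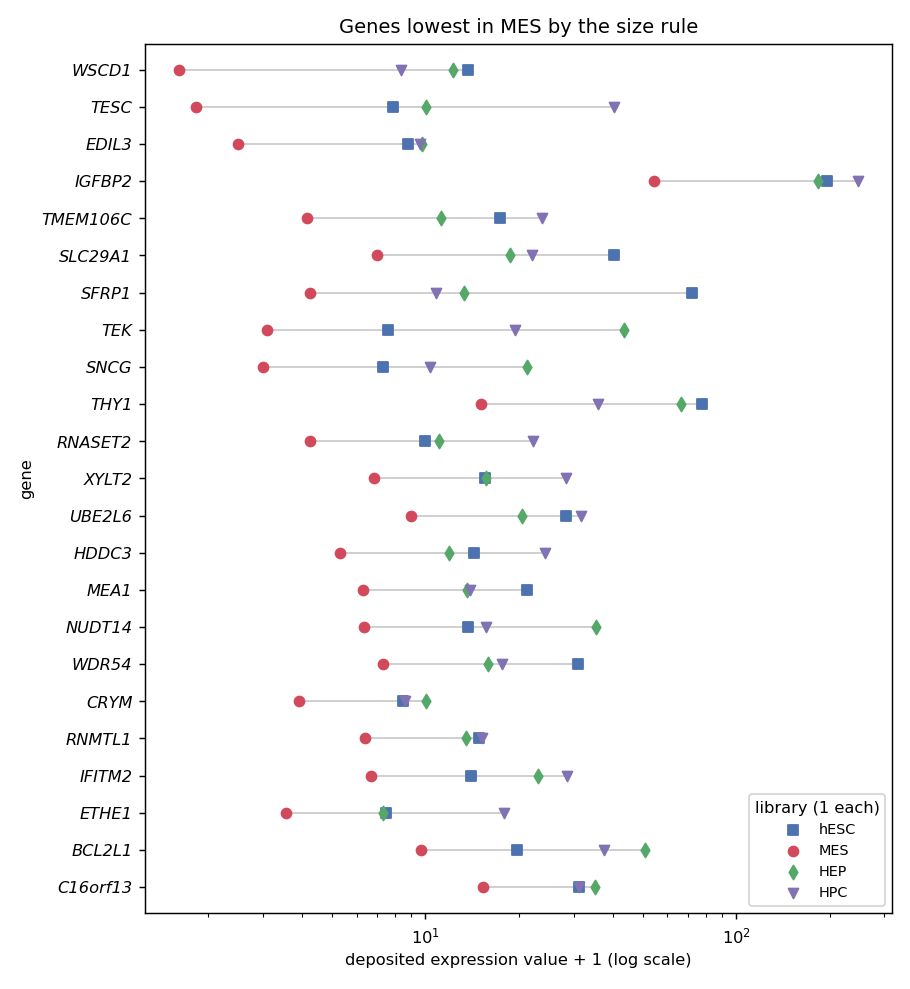
Deposited expression value + 1 (log axis) of 23 of the 24 genes lowest in MES, with 1 symbol for each of the 4 libraries and a grey line spanning them. MES is the leftmost symbol in each row, and only WSCD1 and TESC are separated from the next lowest library by 4-fold or more.

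MES had the fewest genes at a minimum by the rule. The same rules applied to each other library gave 466 genes highest (2.64%) and 149 lowest (0.845%) in hESC. They gave 184 (1.04%) and 168 (0.953%) in HEP, and 237 (1.34%) and 174 (0.987%) in HPC. Of 8174 genes at 5 or more in any library, MES held the maximum for 21.1% and the minimum for 15.3%. With the GC trend removed the genes lowest in MES numbered 16, against 187 for hESC, 42 for HEP and 170 for HPC.

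The composition of transcripts differed between the members and other genes. The median GC content was 48.3% in the genes highest in MES (n = 314), 57.3% in those lowest in MES (n = 24) and 50.7% in all genes at 5 or more in any library (n = 8141). Genes highest in MES also had longer transcripts, with a median of 2308 bases against 1657, and those lowest had shorter ones, 926.5 bases. The genes that could be called lowest, at 5 or more in each other library, had medians of 53.4% GC content and 1351 bases. Library differences ran with GC content across genes, which are not independent replicates: Spearman rho between GC content and the log2 difference was -0.71 for MES minus HEP, -0.47 for MES minus HPC and 0.22 for MES minus hESC over 6366 genes. In the GC decile with the highest share, the fourth, 5.41% of genes were highest in MES, against 1.97% in the decile with the highest GC content. Whether the trend arose in the cells or in library preparation was not tested.

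With the GC trend removed from each library, 251 genes were highest in MES (1.42%), of which 218 were among the 315, and 16 were lowest (0.0908%), of which 15 were among the 24. Large differences were kept more often: 87 of 91 genes at 4-fold or more and 131 of 224 at 2- to 4-fold. Genes next highest in HEP were kept in 120 of 160 cases, those next highest in hESC in 86 of 128 and those next highest in HPC in 12 of 27. In the low group TEK and EDIL3 kept a 2-fold difference, with EDIL3 at -1.26, but another library came under 5. BCL2L1, XYLT2 and HDDC3 were no longer 2-fold (-0.99, -0.83 and -0.97). The same held for MEA1, WDR54, ETHE1 and C16orf13 (-0.96, -0.82, -0.71 and -0.69). The median GC content of the genes highest in MES was then 52.7%.

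**Figure D5:**
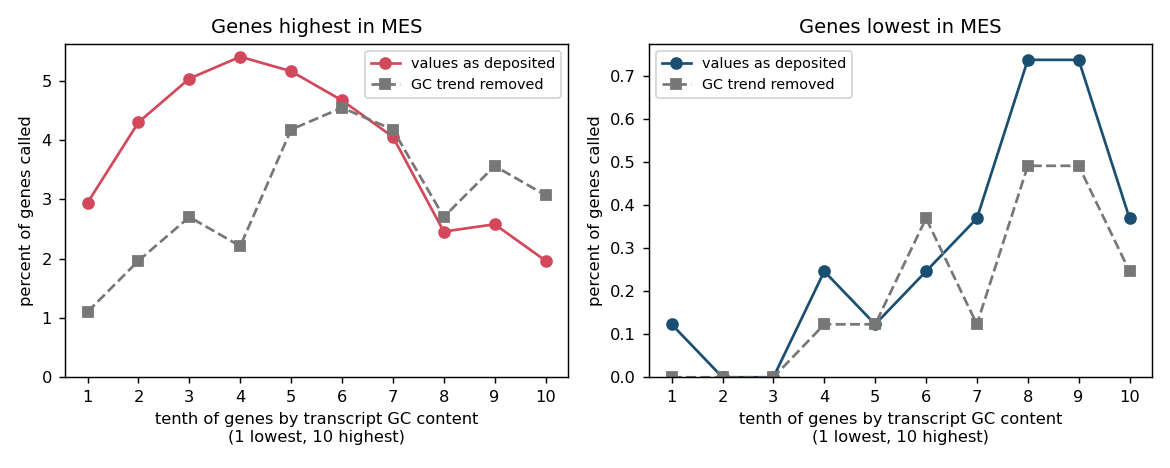
Percent of genes called highest in MES (left) and lowest in MES (right) in each decile of genes ordered by transcript GC content, for the values as deposited (circles) and with the GC trend removed (squares). As deposited, the share highest in MES peaks at 5.41% in the fourth decile. With the trend removed that share is lowest, 1.10%, in the decile with the least GC content. Both curves divide by the same genes, those at 5 or more in any library as deposited. With the trend removed fewer genes reach 5 in any library, 7610 against 8174.

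Some members lay side by side when only the measured genes were placed in order along the genome. Ordered along the chromosomes of RefSeq's GRCh38.p14 annotation, 28 of 314 placed genes highest in MES (8.92%) were next to another such gene, in 15 pairs. The same share was 15.7% for genes highest in hESC, 6.52% for those highest in HEP and 14.5% for those highest in HPC, so it was not a feature of MES. Such shares also rise with the size of the set. The sets were 1.80% of placed genes for MES, 2.67% for hESC, 1.055% for HEP and 1.35% for HPC. The pairs in MES included MESP1 and MESP2, LYPD6 and LYPD6B, ALPK2 and MALT1, and CYP26A1, MYOF and CEP55 in a row. Without strand in the sources used here, reads of overlapping neighbours cannot be told apart. Members with near-identical copies elsewhere, such as SMN2, RGPD8 and the NBPF genes, have uncertain values for the same kind of reason.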

How the data were processed

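The authors deposited 1 table per library of normalised expression signal per gene. The tools BWA, Bowtie and RSEM and the build hg19 are listed per the submitters' processing notes. Versions, annotation, strand setting and which RSEM measure was deposited: not given in the sources used here. The 4 tables were joined on symbol (17634 rows). In 28 rows a symbol had become a date, and 4 of these shared names and were left out, leaving 17630 genes. The values summed to 306724 to 426980 per library and showed no depth. Differences were log2 of (value + 1) against the highest or lowest other library, a scale that understates changes of low genes. With 1 library a group there was no test.

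The members and the 31 gene lists were chosen with earlier results of these data known. Genes named were the 20 and 15 leading members, list members passing a rule, markers, the 3 genes on each side of a threshold and the 5 most like CER1. Any other gene was picked with its values in view. For GC content and length, the median over a gene's GENCODE 29 coding transcripts was taken (17428 genes, 98.9%). The GC trend was the smoothed median deviation in 50 GC bins. Python 3.11.15, numpy 2.4.6 and pandas 2.3.3 were used. The calling code was run on simulated data whose planted changes were larger than those of most members. That run checks the code and not the calls made here. Results for a few genes are not reported here.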

Additional observations from a re-analysis of the deposited data

How the results depend on the processing

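The 315 genes highest in MES became 179 with a pseudocount of 5, 122 with a minimum of 20, 91 at a fold of 4, 207 with median-of-ratios scaling and 209 with upper quartile scaling. The count was 355 with a pseudocount of 0.1, 427 with no minimum, 323 with a common total, 233 with quantile normalisation and 251 with the GC trend removed. The 24 genes lowest in MES became 6 with a pseudocount of 5, 47 with no minimum, 4 with a minimum of 20, 2 at a fold of 4, 37 with upper quartile scaling and 39 with quantile normalisation. Of listed genes, 76 were highest in MES (41 with a minimum of 20, 37 at a fold of 4) and 6 lowest (2 with a pseudocount of 5, 2 with a minimum of 20, 0 at a fold of 4). Stricter limits and a larger pseudocount call fewer genes by construction. For the scalings the cause was not tested. As deposited, the median log2 difference of MES was 0.42 to HEP, 0.42 to HPC and -0.17 to hESC. Median-of-ratios scaling moved the first by -0.45 to -0.04 and the second by -0.44 to -0.02. With that scaling 36 genes were lowest in MES. The part of this offset between libraries in the counts of 315 and 24 was not tested. Under all 5 other scalings 162 of the 315 and 11 of the 24 kept their call. The 20 leading genes kept theirs in 198 of 200 cases, the exceptions being a minimum of 20. The 15 leading lowest genes kept theirs in 111 of 150 cases and lost it in 39, among them 13 genes at a fold of 4, 12 with a minimum of 20 and 9 with a pseudocount of 5. No leading gene reversed. No paired analysis was possible because each group is 1 library. The unknown depth limits what low values can show.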

Other observations

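Further groups were picked after the values were seen, so their counts support nothing. Genes of peptide hormones and their processing were highest in MES beside GRP, NTS and NPPB. PENK, which encodes the enkephalin precursor, stood at 0.10 in hESC, 17.8 in MES, then 1.30 in HEP and 0.18 in HPC. GAL, the galanin precursor, stood at 21.9, 65.3, 6.97 and 1.89, and NPY, neuropeptide Y, at 5.51 in MES and at most 1.5 elsewhere. CPE, a carboxypeptidase that trims such precursors, stood at 6.85, 19.2, 1.83 and 1.17. PENK, GAL and CPE kept their call under all 5 other scalings, and NPY under 2 of them.

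Enzymes that modify heparan sulphate, the sugar chain that binds FGF, BMP and WNT ligands, were another group. HS3ST3A1 stood at 1.02 in hESC, 31.7 in MES, then 4.08 in HEP and 1.15 in HPC, HS6ST1 at 22.1, 71.4, 13.0 and 13.3, and the extracellular sulphatase SULF2 at 1.75, 17.2, 3.47 and 1.2. HS3ST1 and HS3ST3B1 passed too, while EXT1, which builds the chain, did not pass with the GC trend removed (log2 difference 0.22). ANKRD1 (58.5 in MES, 9.59 in HEP) and TEAD1 (21.2 in MES, 3.67 in hESC) were highest in MES and kept their call under all 5 other scalings, while AMOTL2 (42.7 in MES, 17.6 in HEP) kept it under 2.

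By Pearson correlation of log2 (value + 1) over the 4 libraries, the genes at 20 or more in MES most like CER1 were SON, CNKSR3, GSC, MFAP4 and SERINC3 (0.99835 to 0.99963). With 4 points this measure ignores size, as SON stood at 31.6 in MES and 14.8 to 15.3 elsewhere.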
